A study of Mus musculus with 18 samples.

Results

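Left ventricles of young Sesn2-knockout mice were compared with left ventricles of old wild-type mice, all taken after sham surgery, to see how far a young heart without Sesn2 resembles or departs from an old heart at baseline. The comparison used 6 of the study's 18 libraries, chosen by the group in their titles: 3 Sesn2-KO sham hearts of mice 3 to 4 months old and 3 aged WT sham hearts of mice 24 to 26 months old. The study as a whole measured messenger RNA in 6 groups of 3 hearts, in which Sesn2-KO, aged WT and young WT mice each had sham surgery or ischaemia and reperfusion (IR), a closure of the left anterior descending coronary artery for 45 min followed by 24 h of reflow. The 3 young WT sham hearts (3 to 4 months) served here as a common point of reference, and the 3 Sesn2-KO and 3 aged WT hearts taken after IR as a separate set of animals. All mice were on C57BL/6, called C57BL/6J in the protocols. Sham animals were anaesthetized, ventilated and had the left chest opened without closing the artery. The Sesn2-KO mice were bred in the authors' colony, the aged WT mice came from Charles River and the young WT mice from Jackson, so genotype, age and source changed together and cannot be told apart between the 2 groups compared. The labels do not say which part of Sesn2 was deleted, whether littermates were used, or of which sex the mice were.

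Sestrin 2, the product of Sesn2, is induced by amino acid shortage, oxidative stress and DNA damage. In the leucine-sensing branch of nutrient signalling it binds the GATOR2 complex and thereby holds back mTORC1, the kinase complex that drives protein synthesis, and it also favours activation of AMPK, the energy-sensing kinase. In the mouse heart, sestrin 2 protein is known to decline with age, and mice that lack it tolerate ischaemia poorly, so that old and Sesn2-deficient hearts have been studied side by side.

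Sesn2, at chr4:132492032-132510501 (GRCm38), was nearly absent from the Sesn2-KO sham hearts, with 0, 0.149 and 0.37 CPM (read counts relative to library size, with sizes scaled for library composition), against 4.04, 4.28 and 3.4 CPM in aged WT sham hearts. The Sesn2-KO libraries held 0, 2 and 5 Sesn2 counts. The log2 fold change of Sesn2-KO over aged WT was -4.43 ± 0.565 (standard error, as for every value after ± below), with an adjusted p of 0.000565 by edgeR's quasi-likelihood test with Benjamini-Hochberg adjustment over 13859 genes, the test behind every adjusted p below. Young WT hearts had 5.96, 2.76 and 2.91 CPM of Sesn2, and aged WT hearts were not called different from them (aged over young log2 fold change 0.01, adjusted p = 1). Across the 6 libraries the gene counts were 10696816 to 14458047, and precision is set mainly by the 3 hearts in each group. The Y-linked genes Ddx3y, Eif2s3y, Kdm5d and Uty were present in all 6 libraries, and Xist had 0 counts in Sesn2-KO and 2 counts over the aged WT group. Ventricular cardiomyocyte markers, with no member at 0 in either group, summed to 41086.5 to 41723 CPM in Sesn2-KO and 47583 to 50465 CPM in aged WT hearts.

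Before the comparison of genes, 2 libraries have to be named. In Sesn2-KO sham 3 and aged WT sham 1, long transcripts were counted relatively more than in the other libraries of the same group: Spearman's rho between transcript length and a library's deviation from its group mean was 0.398 and 0.34. In the other 4 libraries it was -0.285, -0.278, -0.348 and -0.0148. Sesn2-KO over aged WT fold changes fell with transcript length across genes (rho = -0.212, a description over genes, which are not independent replicates). The part of this length trend in the results was not tested beyond the fits that follow. Those fits left out Sesn2-KO sham 3 and aged WT sham 1, or added each library's length trend as a covariate. Length-tilted below means these 2 libraries alone. Young WT sham 1 (rho = 0.48), aged WT IR 3 (0.387), Sesn2-KO IR 3 (0.374) and young WT IR 3 (0.314) were kept when the 2 were left out.

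As whole profiles, the Sesn2-KO hearts stood as far from the aged WT hearts as from the young WT hearts. The median absolute log2 CPM difference between a Sesn2-KO and an aged WT library was 0.209 to 0.329 over the 9 pairs (median 0.244). Between a Sesn2-KO and a young WT library it was 0.211 to 0.331 (median 0.243), and between an aged and a young WT library 0.138 to 0.276 (median 0.189). Within Sesn2-KO the 3 pairs were 0.155 to 0.278 apart, so that differences among knockout hearts were of the size seen between groups. Sesn2-KO sham 3 was closer to aged WT sham 1 (0.226) than to either other Sesn2-KO library, and these are the 2 length-tilted libraries. On the first principal component of the 9 sham libraries, which held 39.6% of the variance, Sesn2-KO hearts scored 32.8 to 38.2, aged WT hearts -20.7 to -1.08 and young WT hearts -29.7 to -17.6. Aged and young WT scores overlapped on that axis, and the Sesn2-KO scores overlapped neither. The second component (20.1%) was highest in Sesn2-KO 3, aged WT 1 and young WT 1, the libraries with the most positive length correlation in their groups.

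**Figure D1:**
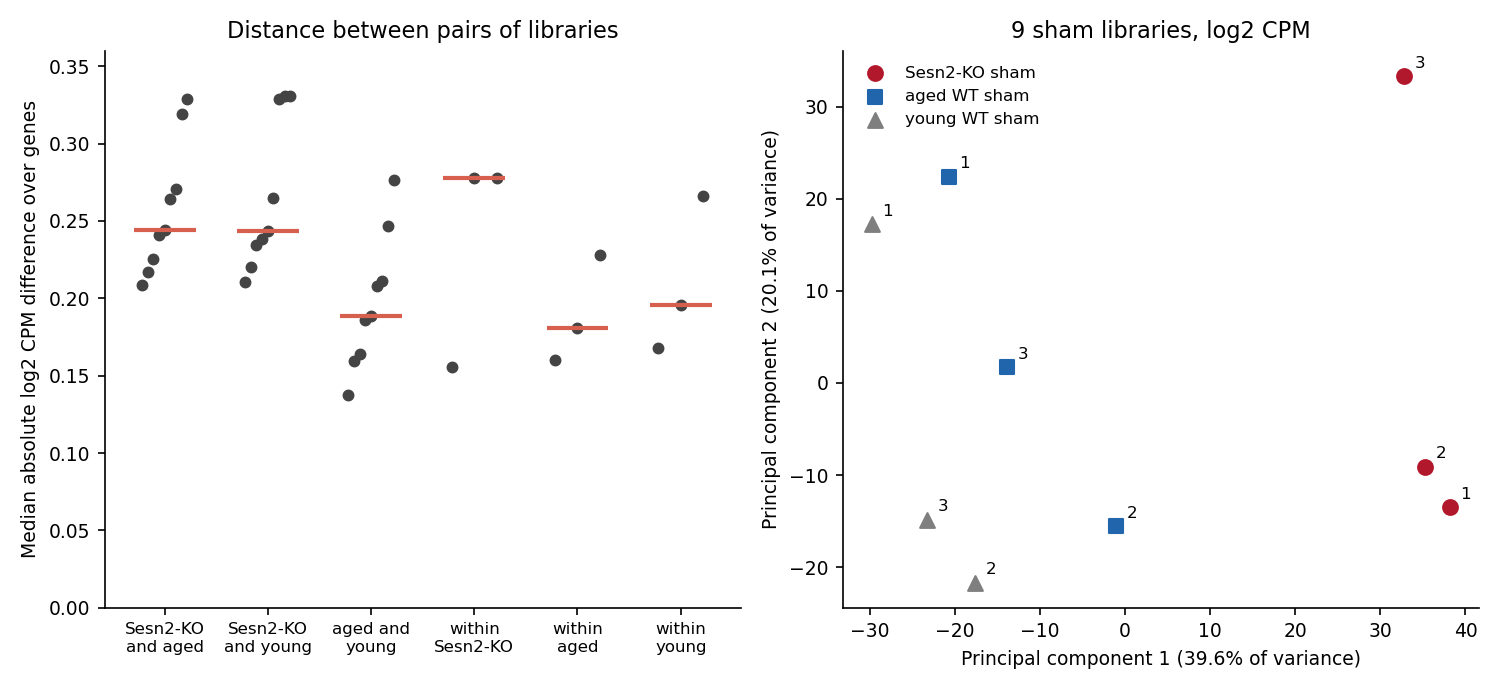
Left, the median absolute log2 CPM difference over genes for each pair of the 9 sham libraries (points), with the median of each kind of pair as a bar; right, the first 2 principal components of the same libraries, numbered by replicate. Sesn2-KO libraries lie about as far from aged WT (median 0.244) as from young WT (0.243), and alone occupy the right of the first component.

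Of 13859 genes tested, 322 differed between Sesn2-KO and aged WT sham hearts at an adjusted p below 0.05, which is 2.32% of them. Of these, 213 (1.54%) were higher and 109 (0.786%) lower in Sesn2-KO, and 2324 genes had an unadjusted p below 0.05. For 76.6% of genes the whole 95% confidence interval of the difference lay within a factor of 2, and 4.25% had an estimate beyond that factor. The share within it was 75.4% for Sesn2-KO against young WT and 81.8% for aged against young WT sham hearts. For Sesn2-KO against aged WT after IR it was 80.1%. A share of this size is thus not particular to the pair compared here. The number of calls depended on single libraries. It was 70 without aged WT 1, 202 without aged WT 2, 104 without aged WT 3, 176, 114 and 137 without Sesn2-KO 1, 2 and 3, and 22 without both length-tilted libraries. All 22 were among the 322. With the length trend as a covariate 860 genes were called. For genes given below with their values in every library, the libraries whose removal ended the call are named, with the highest adjusted p then reached; for genes given by fold change alone this is not always stated, and the counts of each list without single libraries stand instead.

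For scale, the same model called 708 genes (5.11%) between Sesn2-KO and young WT sham hearts and 21 genes (0.152%) between aged and young WT sham hearts. These 3 comparisons share libraries in pairs, so their counts are not independent. Without each library in turn, 296 to 462 genes were called between Sesn2-KO and young WT (fewest without young WT 3), and 4 to 14 between aged and young WT. The Sesn2-KO libraries also held more genes with at least 1 count, 16477 to 16988 against 15893 to 16193 in aged WT and 15857 to 15993 in young WT sham libraries. The same order held in the other animals, with 16375 to 17070 genes in Sesn2-KO, 15765 to 16152 in aged WT and 15715 to 15967 in young WT hearts after IR.

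Counts of members called in each gene list are to be read beside the 1.54% of all genes called higher and 0.786% called lower. The lists with the most members called higher in the knockout were chemokines, neutrophil markers, matrix-remodelling genes, immediate early genes, stress response genes, acute-phase proteins and NRF2 targets with other oxidative stress defence genes. Of the members of these lists, 1 was called between aged and young WT sham hearts. It was Ccl11, the eosinophil chemoattractant eotaxin, with 17, 20 and 19.3 CPM in Sesn2-KO, 12.7, 13.7 and 15.9 CPM in aged WT and 6.51, 5.84 and 7.64 CPM in young WT hearts. Aged WT hearts were higher in it than young WT hearts (log2 fold change 1.08), while Sesn2-KO and aged WT hearts, which do not overlap, gave no call (0.42, adjusted p = 0.253).

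**Figure D2:**
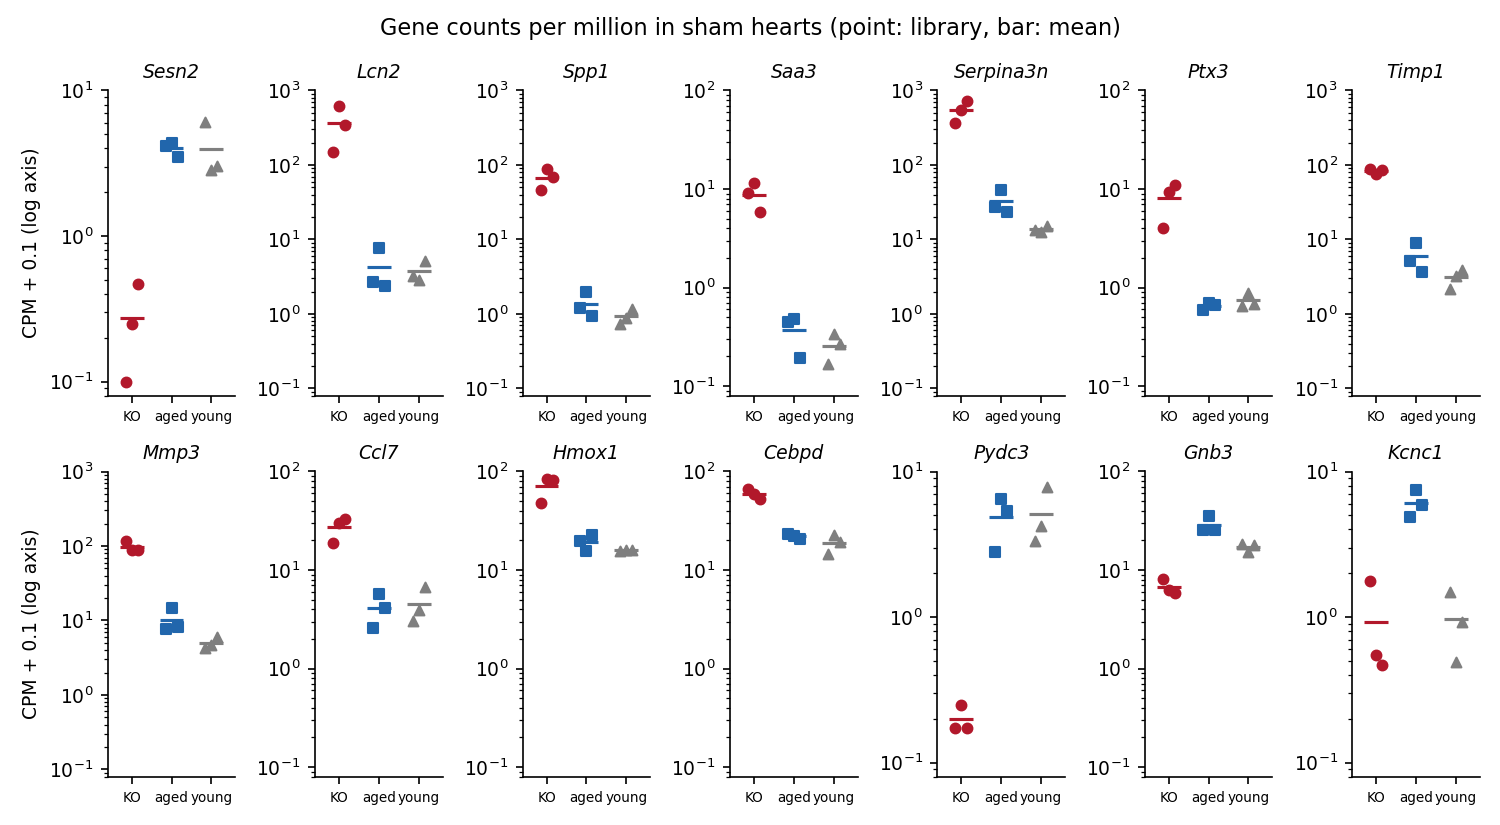
CPM plus a pseudocount of 0.1 on a log axis for 14 genes in Sesn2-KO, aged WT and young WT sham hearts; points are libraries and bars are means (n = 3). From Lcn2 to Cebpd every Sesn2-KO library lies above every WT library, and for Sesn2, Pydc3 and Gnb3 every Sesn2-KO library lies below them, whereas Kcnc1 in Sesn2-KO (0.37 to 1.67 CPM) overlaps the young WT libraries.

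Among acute-phase proteins, which the liver and injured tissues release during inflammation, 4 of 10 tested genes rose in Sesn2-KO and none fell; the median log2 fold change was 0.90, against 0.02 over all genes tested. Lcn2, a protein that withholds iron from bacteria by binding their siderophores, had 149, 618 and 348 CPM in Sesn2-KO hearts, against 2.57, 7.51 and 2.27 CPM in aged WT hearts. The lowest knockout heart was thus well above the highest old heart, and the log2 fold change was 6.48 ± 0.737 (adjusted p = 0.000234). Saa3, a serum amyloid A made outside the liver, had 8.93, 11.3 and 5.78 CPM in Sesn2-KO and 0.348, 0.375 and 0.0946 CPM in aged WT hearts (log2 fold change 4.88 ± 0.615, adjusted p = 0.000541). Ptx3, the long pentraxin of the humoral innate response, had 3.92, 9.16 and 10.8 CPM in Sesn2-KO and 0.487, 0.6 and 0.567 CPM in aged WT hearts (3.83 ± 0.441, adjusted p = 0.000244). Hp, which encodes haptoglobin, a scavenger of haemoglobin, had 19.9, 22.1 and 22.3 CPM in Sesn2-KO and 1.88, 9.31 and 2.74 CPM in aged WT hearts (2.20 ± 0.386, adjusted p = 0.00745). The other tested members, among them C3 (622 CPM in Sesn2-KO and 508 CPM in aged WT hearts, on average) and Cp (243 and 254 CPM), did not pass the test. Each of the 4 called genes kept its call when each of the 6 libraries was left out in turn. Without both length-tilted libraries 3 were called, and Hp was not.

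Of the serine protease inhibitors of the Serpina3 cluster, which are also acute-phase genes, Serpina3n, Serpina3m and Serpina3i were higher too. Serpina3g, tested among the acute-phase proteins above, was not called (0.89 ± 0.6, adjusted p = 0.504). It had 6.25 CPM on average in Sesn2-KO and 3.35 CPM in aged WT hearts. Serpina3n had 365, 549 and 722 CPM in Sesn2-KO hearts, against 27.6, 46.3 and 23.1 CPM in aged WT hearts (log2 fold change 4.07 ± 0.353, adjusted p = 2.33e-05), and young WT hearts had 13.4, 12.6 and 15.2 CPM. Serpina3m had 4.36, 7.75 and 11.3 CPM in Sesn2-KO and 0.278, 0.225 and 0.284 CPM in aged WT hearts (4.85 ± 0.765, adjusted p = 0.00387). Serpina3i had 3.27, 4.84 and 8.07 CPM in Sesn2-KO and 0.487, 0.525 and 0.756 CPM in aged WT hearts (3.20 ± 0.422, adjusted p = 0.000747). These genes are near-identical neighbours, so the split of reads among the copies is uncertain.

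Chemokines and cytokines, which call in and instruct leukocytes, were the list with the most calls. Of 31 chemokines and acute cytokines tested, 12 rose in Sesn2-KO and none fell, with a median log2 fold change of 1.23. Ccl7, a ligand of monocyte chemokine receptors, had 18.7, 29.7 and 32.5 CPM in Sesn2-KO and 2.5, 5.55 and 3.97 CPM in aged WT hearts (2.75 ± 0.342, adjusted p = 0.000478). Ccl2, the main monocyte chemoattractant, had 11.8, 21.7 and 22.7 CPM in Sesn2-KO and 3.2, 4.5 and 3.88 CPM in aged WT hearts (2.28 ± 0.34, adjusted p = 0.00244). Cxcl5, which attracts neutrophils, had 9.59, 8.79 and 7.63 CPM in Sesn2-KO and 0.0696, 1.28 and 0.0946 CPM in aged WT hearts (4.11 ± 0.747, adjusted p = 0.00978); its call was lost without aged WT 1 or 3 (adjusted p up to 0.0652). Il33, an alarmin of stressed stromal cells, had 47.9, 37.1 and 51.6 CPM in Sesn2-KO and 13.6, 17 and 13.8 CPM in aged WT hearts (1.62 ± 0.232, adjusted p = 0.00168). Il6, the cytokine that drives the acute-phase response, had 73 counts over the 3 Sesn2-KO libraries and 3 over the 3 aged WT libraries. Scaled for library size that is a ratio of 22.9 (95% interval 7.53 to 114, for counting error only; adjusted p = 0.0108, lost without aged WT 1 with 0.0677). Socs3, the feedback inhibitor that cytokines such as interleukin 6 induce through STAT3, had 19.4, 26.6 and 41.2 CPM in Sesn2-KO and 4.45, 7.43 and 6.52 CPM in aged WT hearts (2.25 ± 0.325, adjusted p = 0.00188). Il6 was singled out after its values were seen. The remaining 6 called members were Ccl6, Ccl9, Cxcl1, Il1b, Il1rn and Osmr, with log2 fold changes of 1.11 to 2.80. Tnf (1.01 CPM on average in Sesn2-KO and 1.01 CPM in aged WT), Ccl5 (2.08 and 2.03 CPM) and Csf1 (71.1 and 70.8 CPM) did not pass the test. The list's count was 6 without aged WT 1, 8 without aged WT 3, 9 to 14 without each of the others, and 1 (Ccl7) without both length-tilted libraries.

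The promoters of Lcn2, Saa3, Mmp3 and Socs3 are shown because these are genes that rose in the groups above and in the matrix group below, and whose promoter holds a match to a motif of the factor named with it. They are 300-base windows from RefSeq (GRCm38.p6), from 250 bases before to 50 after the annotated start, with the match in capitals. Searched on both strands were the C/EBP core TTGCNNAA, the AP-1 core TGANTCA and the STAT core TTCNNNGAA, chosen after the values were seen.
Lcn2 promoter, chr2:32387690-32387989, minus strand, C/EBP: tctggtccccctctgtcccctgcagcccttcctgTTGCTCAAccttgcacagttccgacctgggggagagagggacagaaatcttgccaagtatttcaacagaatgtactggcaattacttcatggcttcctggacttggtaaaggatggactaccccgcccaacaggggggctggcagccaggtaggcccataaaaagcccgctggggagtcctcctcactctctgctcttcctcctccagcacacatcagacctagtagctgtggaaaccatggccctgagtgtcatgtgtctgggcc
Saa3 promoter, chr7:46715627-46715926, minus strand, C/EBP: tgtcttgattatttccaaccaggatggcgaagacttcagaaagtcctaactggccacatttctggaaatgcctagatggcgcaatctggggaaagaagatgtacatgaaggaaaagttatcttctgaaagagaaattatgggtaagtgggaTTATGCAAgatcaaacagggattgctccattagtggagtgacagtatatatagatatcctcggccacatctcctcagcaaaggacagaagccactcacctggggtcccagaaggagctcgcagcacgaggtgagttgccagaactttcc
Mmp3 promoter, chr9:7445572-7445871, plus strand, AP-1: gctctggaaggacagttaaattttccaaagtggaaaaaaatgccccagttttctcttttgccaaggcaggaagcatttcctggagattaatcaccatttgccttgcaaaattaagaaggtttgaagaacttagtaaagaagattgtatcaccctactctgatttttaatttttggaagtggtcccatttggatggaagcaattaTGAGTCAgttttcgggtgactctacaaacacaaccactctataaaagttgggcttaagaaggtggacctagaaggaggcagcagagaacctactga
Socs3 promoter, chr11:117969317-117969616, minus strand, STAT: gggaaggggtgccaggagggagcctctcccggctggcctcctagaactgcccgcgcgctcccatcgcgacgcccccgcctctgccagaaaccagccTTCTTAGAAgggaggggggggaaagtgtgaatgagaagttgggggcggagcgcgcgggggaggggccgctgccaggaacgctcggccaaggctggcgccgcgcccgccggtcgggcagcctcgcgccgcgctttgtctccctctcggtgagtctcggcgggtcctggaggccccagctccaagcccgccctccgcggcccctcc

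The matches begin 216, 99, 46 and 154 bases before the start of Lcn2, Saa3, Mmp3 and Socs3, in that order. Over all windows of the same length, the C/EBP core was in 13.1% of those of genes higher in Sesn2-KO, 13% of those of genes lower in Sesn2-KO and 8.60% of those of all genes tested. The AP-1 core was in 10.7%, 8% and 5.44%, and the STAT core in 11.2%, 2% and 6.98%, over 206, 100 and 13400 windows. A match is a description of letters and not a measured binding site.

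Of 28 immediate early genes tested, which cells switch on within minutes of a stimulus, 5 rose, none fell, and the median log2 fold change was 0.64. Cebpd, a C/EBP family factor of the acute-phase response, had 66.8, 59.1 and 51.9 CPM in Sesn2-KO and 23.2, 21.8 and 20.6 CPM in aged WT hearts (1.44 ± 0.197, adjusted p = 0.00114). Junb, a subunit of AP-1, had 53.8, 73.9 and 67.2 CPM in Sesn2-KO and 17.3, 32.1 and 28 CPM in aged WT hearts (1.34 ± 0.232, adjusted p = 0.00717). For both, no knockout heart overlapped an old heart. Nr4a1 (log2 fold change 1.56), Fosl2 (0.87) and Zfp36 (0.64), which encodes a protein that destabilizes cytokine messages, were called with adjusted p of 0.0403, 0.0298 and 0.0376. Fosl2 and Zfp36 lost the call on leaving out any aged WT library and without Sesn2-KO 2 or 3 (adjusted p up to 0.106 and 0.172). The list's count was 2 without aged WT 1, aged WT 3, Sesn2-KO 2 or Sesn2-KO 3, 3 without aged WT 2, 4 without Sesn2-KO 1 and 1 without both length-tilted libraries.

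Matrix-remodelling genes that rose encode secreted regulators, proteases or crosslinkers of the matrix. Of 41 matricellular and matrix-remodelling genes, 5 rose and 1 fell (median log2 fold change 0.39). Spp1, the secreted phosphoprotein osteopontin, had 46.3, 87.9 and 68.6 CPM in Sesn2-KO and 1.11, 1.88 and 0.851 CPM in aged WT hearts (5.69 ± 0.632, adjusted p = 0.000218). Timp1, an inhibitor of matrix metalloproteinases, had 89.2, 76.6 and 86.5 CPM in Sesn2-KO and 5.01, 8.93 and 3.59 CPM in aged WT hearts (3.83 ± 0.487, adjusted p = 0.000565). Mmp3, the metalloproteinase stromelysin 1, had 115, 87.6 and 88.7 CPM in Sesn2-KO and 7.65, 14.7 and 8.04 CPM in aged WT hearts (3.26 ± 0.27, adjusted p = 2.33e-05). Serpina3n is the fourth. Lox, which crosslinks collagen, had 28.7, 22.3 and 33.9 CPM in Sesn2-KO and 6.68, 8.78 and 8.98 CPM in aged WT hearts (1.80 ± 0.38, adjusted p = 0.0226), a call lost on leaving out any library other than Sesn2-KO 2 (adjusted p up to 0.125). It is also the 1 called gene of 12 activated fibroblast markers (median 0.44). The member that fell was Fmod, fibromodulin, a collagen-binding proteoglycan, with 3.34, 0.894 and 0.815 CPM in Sesn2-KO and 7.86, 5.18 and 5.86 CPM in aged WT hearts (-1.90 ± 0.47, adjusted p = 0.0457, lost on leaving out any library other than Sesn2-KO 1, up to 0.192). Without each library in turn 4 or 5 members were called higher, and 4 without both length-tilted libraries.

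Of 23 collagen chain genes none was called higher and 1 fell (median log2 fold change 0.22), while 16 had a positive estimate and 9 an unadjusted p below 0.05. In either direction, the DESeq2 Wald test called 5 and limma voom 8. Without Sesn2-KO 1, 1 chain was called higher. The gene that fell was Col4a3, a basement membrane chain, with 2.69, 2.46 and 3.04 CPM in Sesn2-KO and 6.26, 7.13 and 7.09 CPM in aged WT hearts (-1.32 ± 0.245, adjusted p = 0.0112, lost without Sesn2-KO 2 with 0.0604). Col3a1, the fibrillar chain of scars and vessels, had 358, 657 and 739 CPM in Sesn2-KO and 213, 219 and 247 CPM in aged WT hearts, a difference that missed the threshold (1.37 ± 0.374, adjusted p = 0.068). Other chains that missed it were Col6a3 (1.17, adjusted p = 0.0519) and Col1a1 (0.95, adjusted p = 0.11) on the higher side. On the lower side Col4a4 did (-0.80, adjusted p = 0.109). Prg4, the lubricating proteoglycan of joint and serous surfaces, singled out after its values were seen, had 139, 167 and 132 CPM in Sesn2-KO and 17.3, 26.3 and 20.1 CPM in aged WT hearts (2.78 ± 0.26, adjusted p = 3.79e-05).

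Some markers of neutrophils and macrophages were called higher as well. In whole ventricle, more cells of a type and more RNA per cell cannot be told apart. Of 15 neutrophil markers tested, 6 rose and none fell (median log2 fold change 2.52). S100a8, a subunit of calprotectin, had 25.8, 8.34 and 15.2 CPM in Sesn2-KO and 0.696, 3.45 and 1.89 CPM in aged WT hearts (3.03 ± 0.518, adjusted p = 0.00652). Its partner S100a9 had 41.3, 13 and 27.2 CPM in Sesn2-KO and 1.18, 6.83 and 2.93 CPM in aged WT hearts (2.90 ± 0.54, adjusted p = 0.0114, lost without aged WT 1 or 3, up to 0.0645). Clec4d, a lectin receptor of myeloid cells, had 6.97, 8.27 and 9.48 CPM in Sesn2-KO and 1.53, 2.7 and 1.13 CPM in aged WT hearts (2.18 ± 0.318, adjusted p = 0.00197). Mmp8 (3.99), Slfn4 (2.52) and Lcn2, which belongs to this list as well, completed the called members. The 14 markers other than Lcn2 summed to 49.4 to 104 CPM in Sesn2-KO, 10.4 to 28.5 CPM in aged WT and 9.35 to 14.4 CPM in young WT hearts, and no marker was at 0 throughout any of the 3 groups. Without aged WT 1 or aged WT 3 the list's count was 3, and without both length-tilted libraries 1, Lcn2. The part of these cells in the rise of the other inflammatory genes was not tested.

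Of 20 macrophage and monocyte markers 3 rose and none fell (median log2 fold change 0.64), and the list summed to 974 to 1017 CPM in Sesn2-KO, 563 to 830 CPM in aged WT and 465 to 684 CPM in young WT hearts. F13a1, the catalytic subunit of coagulation factor XIII found in tissue macrophages, had 203, 181 and 190 CPM in Sesn2-KO and 96.6, 124 and 94.1 CPM in aged WT hearts (0.87 ± 0.149, adjusted p = 0.00652, 0.0504 without aged WT 1). Mrc1, the mannose receptor, had 102, 110 and 106 CPM in Sesn2-KO and 52.2, 74.8 and 56.7 CPM in aged WT hearts (0.79 ± 0.15, adjusted p = 0.012, lost without aged WT 1 or 3, up to 0.0825). Msr1, a scavenger receptor, had 19.7, 24.4 and 23.6 CPM in Sesn2-KO and 8, 12.8 and 6.81 CPM in aged WT hearts (1.28 ± 0.287, adjusted p = 0.0295, lost without aged WT 1 or 3 or Sesn2-KO 2 or 3, up to 0.154). The pan-macrophage genes Csf1r (97 CPM on average in Sesn2-KO and 96.3 CPM in aged WT) and Adgre1 (35 and 28.8 CPM) did not pass the test. The list's count was 0 without aged WT 1, 1 without aged WT 3 and 0 without both length-tilted libraries. Lymphoid markers did not pass the test in any member, with 12 T and NK cell genes (median log2 fold change 0.02) and 8 B and plasma cell genes (-0.37) tested.

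Several genes outside these lists had fold changes of similar size. Arg1, arginase 1, which marks alternatively activated macrophages, had 366 counts over the 3 Sesn2-KO libraries and 1 over the 3 aged WT libraries, a scaled ratio of 344 (95% interval 61.4 to 13634.5 for counting error only; adjusted p = 0.00441). Reg3a, a secreted lectin induced by tissue injury, had 80 counts in Sesn2-KO and 1 in aged WT libraries, a ratio of 75.2 (13.1 to 3009; adjusted p = 0.00876, lost without aged WT 1 with 0.0642). Sprr1a, a small proline-rich protein induced in stressed cardiomyocytes, had 9.59, 15.3 and 29.9 CPM in Sesn2-KO and 0.696, 1.8 and 0.851 CPM in aged WT hearts (4.01 ± 0.821, adjusted p = 0.0198, lost without aged WT 1 or 3 or Sesn2-KO 3, up to 0.117). Angptl4, the secreted inhibitor of lipoprotein lipase, had 34.3, 119 and 135 CPM in Sesn2-KO and 7.1, 5.48 and 14.4 CPM in aged WT hearts (3.44 ± 0.55, adjusted p = 0.00422). It was the 1 called gene of 33 in fatty acid uptake and beta-oxidation (median 0.12), where 2.32% of all genes tested were called. Pdpn, podoplanin of lymphatic endothelium and activated stroma, had 29.3, 26.7 and 25.9 CPM in Sesn2-KO and 6.05, 8.78 and 9.55 CPM in aged WT hearts (1.75 ± 0.268, adjusted p = 0.00307). It was the 1 called gene of 9 markers of endocardium and lymphatic endothelium (median -0.11).

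Of 25 genes of NRF2 and oxidative stress defence 4 rose and none fell (median log2 fold change 0.20). Hmox1, the haem-degrading oxygenase, had 47.9, 84.1 and 81.9 CPM in Sesn2-KO and 19.5, 15.6 and 22.7 CPM in aged WT hearts (1.89 ± 0.214, adjusted p = 0.000234). Mt2, a metal-binding metallothionein, had 102, 194 and 181 CPM in Sesn2-KO and 29.6, 19.8 and 38.9 CPM in aged WT hearts (2.44 ± 0.294, adjusted p = 0.000381). Its paralogue Mt1 had 271, 352 and 300 CPM in Sesn2-KO and 132, 117 and 165 CPM in aged WT hearts (1.16 ± 0.239, adjusted p = 0.0208, lost without aged WT 1 or 2 or Sesn2-KO 2 or 3, up to 0.103). Gpx3, a secreted glutathione peroxidase, had 655, 669 and 556 CPM in Sesn2-KO and 289, 366 and 328 CPM in aged WT hearts (0.94 ± 0.213, adjusted p = 0.0321, lost on leaving out any 1 of the 6 libraries, up to 0.164). Hmox1 and Mt2 were called without each of the 6 libraries in turn and without both length-tilted libraries. Of the 25 genes, 20 had a positive estimate. Among members not called, Nqo1 (-0.23) and Gclc (-0.21) had negative estimates, and Gclm (0.30), Srxn1 (0.20) and Txnrd1 (0.16) positive ones.

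Among 31 tested members of a list joining ER chaperones with targets of the integrated stress response, 5 rose, and the 1 that fell was Sesn2 itself, a member of the list (median log2 fold change 0.62; 20 had an unadjusted p below 0.05). Calr, the calcium-binding ER chaperone calreticulin, had 540, 467 and 645 CPM in Sesn2-KO and 273, 309 and 277 CPM in aged WT hearts (0.94 ± 0.194, adjusted p = 0.0204). Pdia6, a disulfide isomerase, had 234, 222 and 283 CPM in Sesn2-KO and 98.2, 135 and 111 CPM in aged WT hearts (1.10 ± 0.23, adjusted p = 0.0214). Slc3a2, the heavy chain of amino acid exchangers, had 86.4, 74.6 and 80.3 CPM in Sesn2-KO and 53.4, 55.1 and 47.9 CPM in aged WT hearts (0.62 ± 0.134, adjusted p = 0.0253). Psat1 (1.23) and Creld2 (0.83) were the other called members. The factors at the head of these pathways were not called, Atf4 with 175 CPM on average in Sesn2-KO and 129 CPM in aged WT hearts, Ddit3 with 39.8 and 30.7 CPM. No member was called higher without aged WT 1, aged WT 3 or Sesn2-KO 3, each alone, where the adjusted p of Calr, Pdia6 and Slc3a2 reached 0.103, 0.123 and 0.112, and 2 to 4 were without each of the others (2 without Sesn2-KO 1 or 2). Slc3a2 was also lost without Sesn2-KO 1 or 2.

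**Figure D3:**
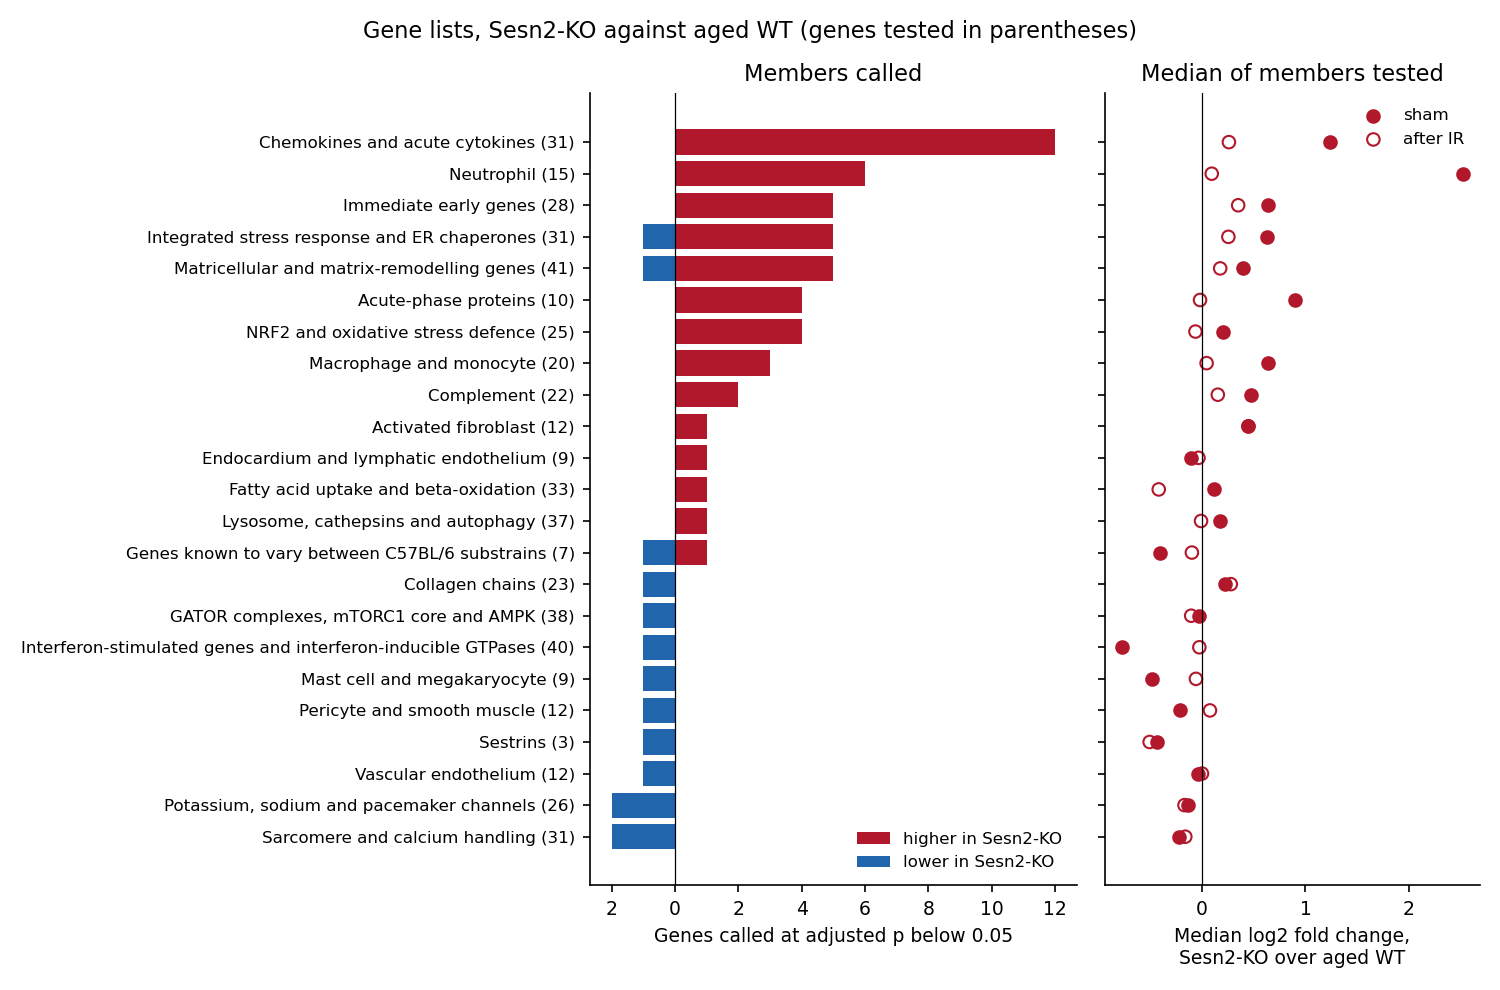
For the 23 gene lists with at least 1 member called, left, the number of members called higher (right of 0) or lower (left of 0) in Sesn2-KO than in aged WT sham hearts, with the number tested in parentheses; right, the median log2 fold change of tested members in sham hearts (filled) and after IR (open). Chemokines and acute cytokines have 12 higher calls, and the median of neutrophil markers is 2.52 in sham hearts against 0.09 after IR.

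Of 38 genes of the GATOR complexes, the mTORC1 core and AMPK, none rose and 1 fell, with a median log2 fold change of -0.03. Over all genes tested 1.54% were called higher and 0.786% lower. Rragd, a Rag GTPase that recruits mTORC1 to the lysosome, had 124, 103 and 140 CPM in Sesn2-KO and 176, 161 and 163 CPM in aged WT hearts (-0.45 ± 0.11, adjusted p = 0.0451, lost on leaving out any library other than Sesn2-KO 3, up to 0.196). Mtor had 77.2, 87.2 and 88.1 CPM in Sesn2-KO and 111, 99.1 and 92.8 CPM in aged WT hearts (-0.26 ± 0.0972, adjusted p = 0.178). The AMPK subunit gene Prkab1 had 43.2, 45.1 and 48 CPM in Sesn2-KO and 57.6, 66.1 and 58.2 CPM in aged WT hearts (-0.42 ± 0.106, adjusted p = 0.0504). The other sestrins did not pass the test: Sesn1 had 139, 181 and 172 CPM in Sesn2-KO and 247, 209 and 211 CPM in aged WT hearts (-0.44 ± 0.186, adjusted p = 0.245), and Sesn3 3.27, 5.51 and 5.48 CPM in Sesn2-KO and 8.07, 3.75 and 4.54 CPM in aged WT hearts (-0.21 ± 0.318, adjusted p = 0.807).

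In sarcomere and calcium handling 2 of 31 genes fell and none rose (median log2 fold change -0.22). Mybpc3, a thick-filament regulator, had 3272, 2834 and 3229 CPM in Sesn2-KO and 4311, 4449 and 4579 CPM in aged WT hearts (-0.51 ± 0.128, adjusted p = 0.0466). Asph, whose products include the calcium-store proteins junctin and junctate, had 244, 227 and 281 CPM in Sesn2-KO and 337, 372 and 345 CPM in aged WT hearts (-0.49 ± 0.123, adjusted p = 0.0483). Myh6, the adult cardiac myosin heavy chain, had 9396, 10084 and 10692 CPM in Sesn2-KO and 14525, 14597 and 14361 CPM in aged WT hearts, with no overlap but an adjusted p of 0.0898 (-0.53 ± 0.156). Of 26 potassium, sodium and pacemaker channel genes 2 fell (median -0.14), both subunits of the ATP-sensitive potassium channel. Kcnj11, its pore, had 177, 150 and 181 CPM in Sesn2-KO and 246, 228 and 214 CPM in aged WT hearts (-0.44 ± 0.109, adjusted p = 0.0469). Abcc9, its sulfonylurea receptor and also the 1 called gene of 12 pericyte and smooth muscle markers (median -0.21), had 219, 257 and 327 CPM in Sesn2-KO and 537, 415 and 389 CPM in aged WT hearts (-0.74 ± 0.185, adjusted p = 0.0476). All 4 calls were near the threshold: Mybpc3, Asph and Kcnj11 were lost on leaving out any 1 of the 6 libraries (adjusted p up to 0.178, 0.183 and 0.212) and Abcc9 on leaving out any but Sesn2-KO 3 (up to 0.238).

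Single members fell in 3 other lists, where 0.786% of all genes tested were called lower. Kdr, the main VEGF receptor of endothelium, had 187, 146 and 139 CPM in Sesn2-KO and 207, 225 and 235 CPM in aged WT hearts (-0.50 ± 0.122, adjusted p = 0.0426, lost on leaving out any library other than Sesn2-KO 1, up to 0.16), and was the 1 called gene of 12 vascular endothelial markers (median -0.03). Cpa3, a mast cell protease, had 0.581, 0.67 and 0.963 CPM in Sesn2-KO and 2.92, 2.03 and 1.51 CPM in aged WT hearts (-1.55 ± 0.391, adjusted p = 0.0487, lost on leaving out any 1 library, up to 0.245), and was the 1 of 9 mast cell and megakaryocyte markers (median -0.48). Rsad2, the antiviral protein viperin, had 18.8, 22.6 and 16.6 CPM in Sesn2-KO and 35.6, 68.2 and 56.3 CPM in aged WT hearts (-1.46 ± 0.3, adjusted p = 0.0198, lost without aged WT 2 or 3 or Sesn2-KO 1 or 3, up to 0.0768). It was the 1 called gene of 40 interferon-stimulated genes, whose median was -0.78; 38 of the 40 had a negative estimate. Summed, the interferon list had 971 to 1095 CPM in Sesn2-KO, 985 to 2611 CPM in aged WT and 1016 to 10284 CPM in young WT hearts. Its upper end in the WT groups came from 1 heart each: Irf7, the master regulator of type I interferon genes, had 33.6, 20.5 and 18.3 CPM in Sesn2-KO, 39.1, 115 and 48.7 CPM in aged WT and 25.3, 32.9 and 95.7 CPM in young WT hearts (Sesn2-KO over aged WT -1.49 ± 0.456, adjusted p = 0.0993).

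Of 22 complement genes 2 rose (median log2 fold change 0.48). Cfp, properdin, had 29, 29.4 and 26.2 CPM in Sesn2-KO and 10.4, 17.3 and 9.64 CPM in aged WT hearts (1.18 ± 0.296, adjusted p = 0.0476, lost on leaving out any library other than aged WT 2, up to 0.217). Masp1, a protease of the lectin pathway, had 26.8, 24.9 and 36.8 CPM in Sesn2-KO and 12.2, 11.5 and 10.7 CPM in aged WT hearts (1.36 ± 0.311, adjusted p = 0.0326, lost on leaving out any 1 library, up to 0.126).

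No member was called in 21 further lists, which together held 352 tested genes (median log2 fold change 0.02; 68 with an unadjusted p below 0.05, 15 called by the DESeq2 Wald test and 42 by limma voom). None of 45 nuclear-encoded respiratory chain and ATP synthase genes had an unadjusted p below 0.05 (median 0.05). None of 31 genes of the tricarboxylic acid cycle and branched-chain amino acid catabolism was called (median -0.16). Only 3 of them had a positive estimate and 7 had an unadjusted p below 0.05. The DESeq2 Wald test called 3 and limma voom 6. All 43 cytosolic ribosomal protein genes had a positive estimate (median 0.36) and none was called, with 16 below an unadjusted p of 0.05; Rpl3 had 565, 404 and 398 CPM in Sesn2-KO and 209, 316 and 255 CPM in aged WT hearts (adjusted p = 0.0892). Of 15 natriuretic peptide and foetal sarcomere genes (median 0.24) none was called, and Nppa, which encodes atrial natriuretic peptide, had 665, 217 and 316 CPM in Sesn2-KO and 124, 260 and 218 CPM in aged WT hearts (0.99 ± 0.552, adjusted p = 0.393). Of 25 p53 targets and senescence-associated genes (median 0.13) none was called; Cdkn1a, an inhibitor of the cell cycle, had 44, 20.1 and 37.8 CPM in Sesn2-KO and 13.4, 20.1 and 14.7 CPM in aged WT hearts (1.08 ± 0.421, adjusted p = 0.202). Of 16 heat shock proteins and co-chaperones none was called (median 0.34), while 13 had a positive estimate and 10 an unadjusted p below 0.05. The DESeq2 Wald test called 3 of them and limma voom 3. The others were circadian clock genes (19 tested, median -0.10), antigen presentation (18, -0.48), cell cycle and DNA replication (32, -0.02), insulin, IGF and FOXO signalling (29, -0.03), ventricular (10, -0.17) and atrial (9, -0.06) cardiomyocyte, fibroblast (12, 0.37), epicardium and mesothelium (9, -1.72), Schwann cell (9, 0.25), adipocyte (2, 0.05), erythroid (4, -0.92), skeletal muscle (8, -0.35) and sex-linked genes (4, -0.31), besides the 2 lymphoid lists above.

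The epicardial and mesothelial list had the lowest median although none of its members passed. Upk3b, a uroplakin of mesothelium, had 1.09, 0 and 0.519 CPM in Sesn2-KO and 7.58, 5.85 and 7.56 CPM in aged WT hearts (-3.67 ± 1.08, adjusted p = 0.0879), and Msln, mesothelin, 1.74, 0.149 and 1.11 CPM in Sesn2-KO and 6.75, 5.63 and 4.92 CPM in aged WT hearts (-2.51 ± 1.07, adjusted p = 0.243). In young WT hearts Upk3b had 3.67, 16.8 and 8.72 CPM. The list without C3, which other cells also make, summed to 5.81 to 12.5 CPM in Sesn2-KO, 22.7 to 28.5 CPM in aged WT and 17.5 to 50.4 CPM in young WT hearts. With C3 it summed to 585 to 664 CPM in Sesn2-KO, 370 to 776 CPM in aged WT and 207 to 468 CPM in young WT hearts, so that Sesn2-KO and aged WT hearts overlapped. The list's part in the other results was not tested.

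The 109 genes lower in Sesn2-KO had a median log2 fold change of -0.83, against 1.03 for the 213 higher ones. Pydc3, an interferon-inducible gene with close paralogues, so that its counts are uncertain, had 0.0726, 0.149 and 0.0741 CPM in Sesn2-KO and 2.71, 6.38 and 5.29 CPM in aged WT hearts (-5.47 ± 0.514, adjusted p = 3.79e-05). Gnb3, a G protein beta subunit, had 8.06, 6.11 and 5.78 CPM in Sesn2-KO and 25.5, 35.5 and 25.6 CPM in aged WT hearts (-2.12 ± 0.214, adjusted p = 8.29e-05). Lrrc4b, a synaptic adhesion protein, had 11.3, 5.96 and 6.15 CPM in Sesn2-KO and 27, 37.1 and 21.9 CPM in aged WT hearts (-1.87 ± 0.317, adjusted p = 0.00624). Mdga1, a membrane-anchored adhesion protein, had 5.52, 4.62 and 6.45 CPM in Sesn2-KO and 27.1, 23.3 and 13.2 CPM in aged WT hearts (-1.94 ± 0.303, adjusted p = 0.00365). Atcayos, annotated opposite the neuronal gene Atcay, had 8.28, 10.4 and 3.93 CPM in Sesn2-KO and 37.3, 30.8 and 43.4 CPM in aged WT hearts (-2.30 ± 0.504, adjusted p = 0.0265); the strand setting of the counting is not given in the sources used here, so reads of the 2 strands may not be separated. Akap5 (-1.82), the olfactory receptor gene Olfr78 (-2.04), the growth factor gene Bmp5 (-1.93) and Sfn (-1.78), which encodes the signalling adaptor stratifin, had adjusted p of 0.0292, 0.0333, 0.034 and 0.03. Olfr78 and Sfn lost the call on leaving out any 1 of the 6 libraries, Atcayos and Akap5 on leaving out any but aged WT 2, and Bmp5 on leaving out any but Sesn2-KO 2 (adjusted p up to 0.136 in these).

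To place the knockout on the axis from young to old, the 21 genes that differed between aged and young WT sham hearts were followed, 20 of them higher and 1, Slc38a1, lower in old hearts. Between Sesn2-KO and aged WT sham hearts 2 of the 21 (9.52%) were called, against the 2.32% of all genes, and for the other 19 no call is not evidence that the groups were alike. In 10 of the 21 (47.6%) the 3 Sesn2-KO and the 3 aged WT libraries did not overlap, as in 24.0% of all genes. Sesn2-KO lay below aged WT in 7 of these 10 and above in 3. The shared aged WT and young WT libraries enter both comparisons, so these counts are a description. Aged and young WT hearts also came from different suppliers, so age and source cannot be told apart in the list. Its size depended on single libraries, with 4 genes called without young WT 3, 7 to 9 without young WT 1, young WT 2 or aged WT 2, and 13 and 14 without aged WT 3 and aged WT 1.

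The 8 genes given first are among those called in the same direction in both comparisons against young WT sham hearts. They were also required not to be called between Sesn2-KO and aged WT sham hearts. Cdh22, a cell adhesion cadherin, had 21.2, 11.5 and 21.9 CPM in Sesn2-KO, 15.2, 11.5 and 9.36 CPM in aged WT and 1.32, 1.89 and 1.41 CPM in young WT hearts. Cyp2b10, a cytochrome P450 best known in liver, had 10.2, 5.21 and 8.52 CPM in Sesn2-KO, 15.9, 7.21 and 6.52 CPM in aged WT and 0.831, 0.552 and 0.332 CPM in young WT hearts. Ano5, a membrane protein of muscle, had 14.3, 17.1 and 21.9 CPM in Sesn2-KO, 29.8, 25.2 and 16.3 CPM in aged WT and 5.75, 4.26 and 3.16 CPM in young WT hearts. In all 3 genes the young WT hearts stood apart below, while Sesn2-KO and aged WT hearts overlapped. Ryr1, the skeletal muscle ryanodine receptor, had 2.18, 1.79 and 1.78 CPM in Sesn2-KO, 2.02, 2.18 and 1.42 CPM in aged WT and 0.485, 0.474 and 0.249 CPM in young WT hearts. Abat, which degrades GABA, had 48.8, 49.9 and 61.9 CPM in Sesn2-KO, 69.2, 65.6 and 60.1 CPM in aged WT and 34.1, 16.4 and 21.1 CPM in young WT hearts. Prkcq, protein kinase C theta, had 29, 19.8 and 17.6 CPM in Sesn2-KO, 29.2, 28.1 and 28.2 CPM in aged WT and 7.69, 8.84 and 6.65 CPM in young WT hearts. For Cds1, a lipid synthesis enzyme, and Fam169a, Sesn2-KO hearts lay between the WT groups, with 23.5, 21.3 and 25.7 CPM and 2.76, 2.68 and 2.96 CPM, against 29.1, 34.4 and 25.8 CPM and 3.76, 3.53 and 5.86 CPM in aged WT and 7, 7.97 and 15.9 CPM and 1.32, 1.26 and 0.997 CPM in young WT hearts. Across these 8 genes, the log2 fold change of Sesn2-KO over young WT was 1.16 to 3.76 and that of aged over young WT 1.44 to 4.07. That of Sesn2-KO over aged WT was -0.64 to 0.59, a range limited by the choice of genes without a call there. It is therefore not a measure of likeness. For Ryr1 the 95% interval of Sesn2-KO over aged WT was -0.55 to 0.59 and for Cyp2b10 -1.13 to 0.51, so these data leave room for a difference in either direction.

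The 2 genes of the 21 that were called between Sesn2-KO and aged WT were Kcnc1 and Cdh4. Kcnc1, a fast-activating potassium channel of neurons, had 1.67, 0.447 and 0.37 CPM in Sesn2-KO, 4.8, 7.36 and 5.77 CPM in aged WT and 1.39, 0.395 and 0.831 CPM in young WT hearts. Sesn2-KO hearts thus overlapped the young ones and lay below the old ones (-2.83 ± 0.501, adjusted p = 0.00805). Cdh4, another cadherin, had 12.9, 15.3 and 13 CPM in Sesn2-KO, 33.1, 21.4 and 20 CPM in aged WT and 10.2, 6 and 8.06 CPM in young WT hearts, with the knockout in between (Sesn2-KO over aged WT -0.86 ± 0.216, adjusted p = 0.0476, lost on leaving out any 1 of the 6 libraries, up to 0.264). Amtn, which encodes the enamel protein amelotin, had 1.67, 0.67 and 0.593 CPM in Sesn2-KO, 2.92, 2.7 and 1.8 CPM in aged WT and 0.208, 0.158 and 0.332 CPM in young WT hearts. Bdh1, a ketone body enzyme, had 261, 188 and 240 CPM in Sesn2-KO, 304, 328 and 332 CPM in aged WT and 217, 154 and 153 CPM in young WT hearts. Ric3, a chaperone of acetylcholine receptors, had 11.6, 8.72 and 6.89 CPM in Sesn2-KO, 12.4, 13 and 13.2 CPM in aged WT and 5.68, 4.81 and 5.98 CPM in young WT hearts. In all 3 the Sesn2-KO hearts lay below every aged WT heart without a call (log2 fold changes of -1.34 ± 0.437, -0.48 ± 0.166 and -0.51 ± 0.188 for Amtn, Bdh1 and Ric3), and Amtn and Bdh1 were not called between Sesn2-KO and young WT hearts. These 5 genes were singled out after their values were seen.

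The 21 genes were also examined in the hearts taken after IR, which are other animals. There 13 of the 21 were called between Sesn2-KO and young WT hearts, against 0.433% of all genes, and 9 between aged and young WT hearts, against 0.0649%. In 20 of the 21 genes all 3 Sesn2-KO IR hearts lay beyond all 3 young WT IR hearts on the side where aged WT sham hearts had differed from young ones; among all genes tested 6.87% did so. Kcnc1 was the exception, with 0.2, 0.884 and 0.354 CPM in Sesn2-KO IR and 0.426, 0.374 and 0.376 CPM in young WT IR hearts. All 21 genes did so in aged WT IR hearts, against 5.12% of all genes. Both counts use the same 3 young WT IR hearts, which like the sham ones came from Jackson.

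**Figure D4:**
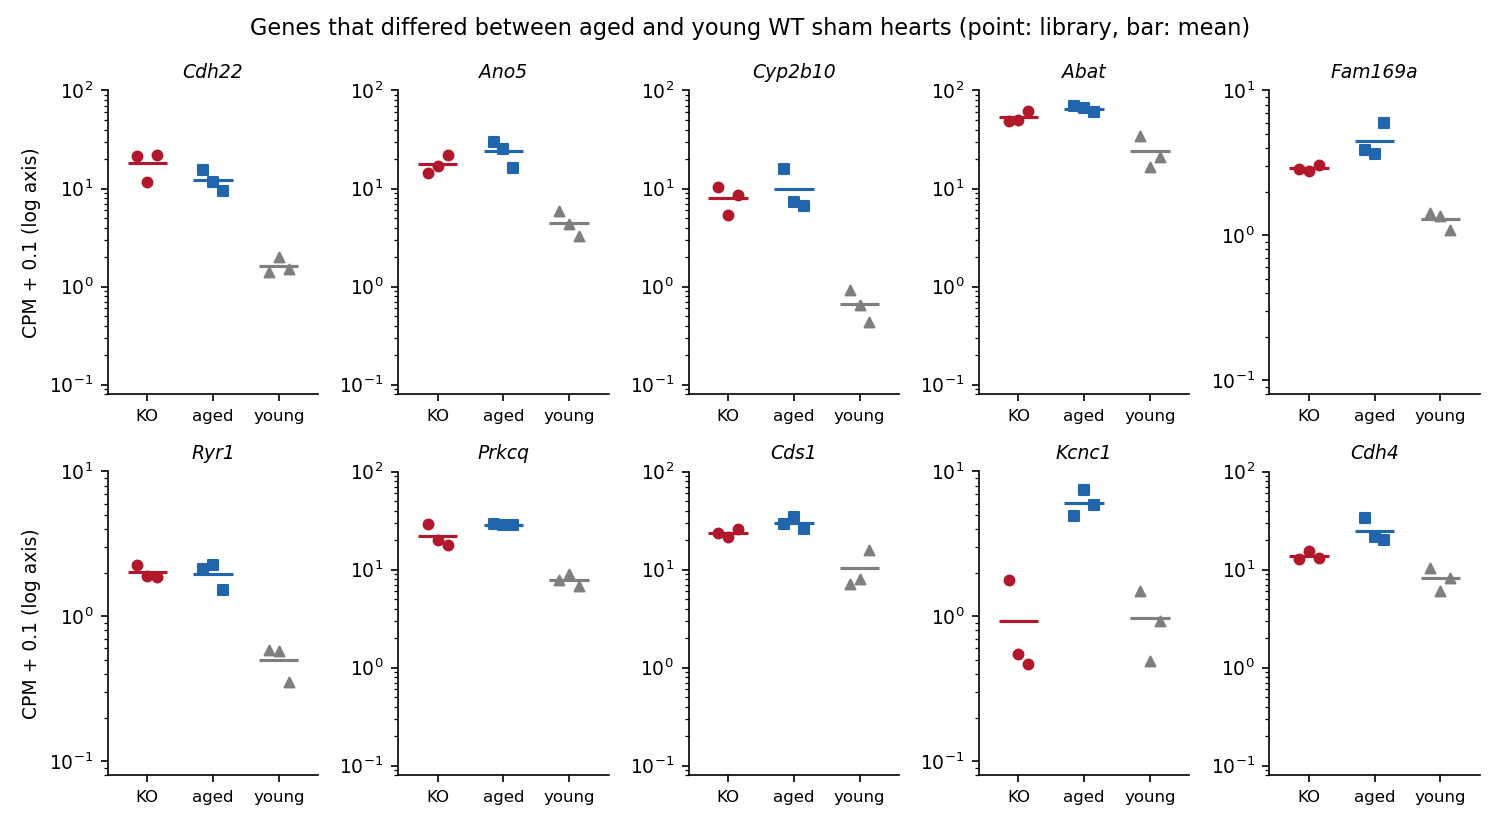
CPM plus a pseudocount of 0.1 on a log axis for 10 of the 21 genes that differed between aged and young WT sham hearts, in Sesn2-KO, aged WT and young WT sham hearts; points are libraries and bars are means (n = 3). In the first 8 genes the Sesn2-KO libraries lie above all young WT libraries, in Kcnc1 they overlap them (0.37 to 1.67 CPM), and in Cdh4 between the WT groups.

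After IR, 10 genes were called between Sesn2-KO and aged WT hearts (0.0722% of 13859; 3 higher and 7 lower in Sesn2-KO), and all 10 were among the 322 of the sham comparison. With the Sesn2-KO and aged WT IR hearts fitted alone 0 were called by edgeR; in the model of all groups 1068 had an unadjusted p below 0.05, and the DESeq2 Wald test called 66 and limma voom 45. Without each IR library in turn 5 to 8 genes were called, the 5 without Sesn2-KO IR 3. Of the 213 genes higher in Sesn2-KO sham hearts, 190 (89.2%) also had a positive log2 fold change after IR, but their median was 0.26 after IR against 1.03 in sham hearts. Of the 109 lower genes 103 (94.5%) were negative after IR, with a median of -0.37 after IR against -0.83 in sham hearts. These genes were chosen by the sham test, so some fall of the medians in a second comparison follows from the choice. How much of the fall does so was not tested. Over all genes tested the median absolute log2 fold change was 0.185 in sham hearts and 0.145 after IR, and 68.0% had the same sign in both. These shares compare separate animals, but the mouse sources are the same.

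None of the 10 was an acute-phase, chemokine, matrix or neutrophil gene. Wdfy1, an endosomal adaptor known to vary between mouse strains, had 45.8, 48.4 and 55.3 CPM in Sesn2-KO and 10.2, 9.98 and 12.6 CPM in aged WT sham hearts (2.19 ± 0.225, adjusted p = 8.49e-05), and 51.7, 74.8 and 81.8 CPM in Sesn2-KO and 11.1, 11.2 and 17.6 CPM in aged WT hearts after IR (2.39 ± 0.225, adjusted p = 0.000157). Dynlt1b, a dynein light chain with several near-identical copies, and the pseudogene Tmem181b-ps had log2 fold changes of 1.70 and 1.37 in sham hearts and 1.55 and 2.03 after IR. On the lower side stood Sesn2 (-3.99 after IR), Pydc3 (-3.13), Sfn (-2.15), Hpn, the serine protease hepsin (-1.83), Hmgn2, a nucleosome-binding protein with many pseudogenes (-1.59), Gnb3 (-1.47) and Guf1, a mitochondrial translation factor (-0.67). Dynlt1b, Tmem181b-ps, Hpn, Hmgn2 and Guf1 were singled out because they were called in both. In sham hearts Hpn lost its call without aged WT 1 or Sesn2-KO 3 (up to 0.111) and Guf1 without aged WT 1 or 3 or Sesn2-KO 2 or 3 (up to 0.0929).

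The gap between Sesn2-KO and aged WT hearts was larger in sham than in IR hearts in 7 genes (0.0505% of 13859), which were Lcn2, Saa3, Ptx3, Serpina3n, Serpina3i, Spp1 and Mmp3, and in all 7 the Sesn2-KO and aged WT libraries overlapped after IR. The count was 2 without aged WT sham 1, 13 without Sesn2-KO sham 1, 6 to 9 without any other library and 0 without both length-tilted libraries. Lcn2 after IR had 582, 294 and 305 CPM in Sesn2-KO and 266, 538 and 213 CPM in aged WT hearts, which overlap, and the difference of its log2 gaps between sham and IR was 6.26 ± 0.893 (adjusted p = 0.00651). The sham level of Lcn2 in Sesn2-KO hearts (149, 618 and 348 CPM) thus overlapped the level both groups had after IR. Serpina3n had 455, 406 and 552 CPM in Sesn2-KO IR and 356, 551 and 294 CPM in aged WT IR hearts, which overlapped the Sesn2-KO sham hearts as well. Spp1 was different in that its Sesn2-KO sham values (46.3, 87.9 and 68.6 CPM) stayed below those of Sesn2-KO IR hearts (194, 237 and 179 CPM), while aged WT IR hearts had 302, 107 and 153 CPM.

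**Figure D5:**
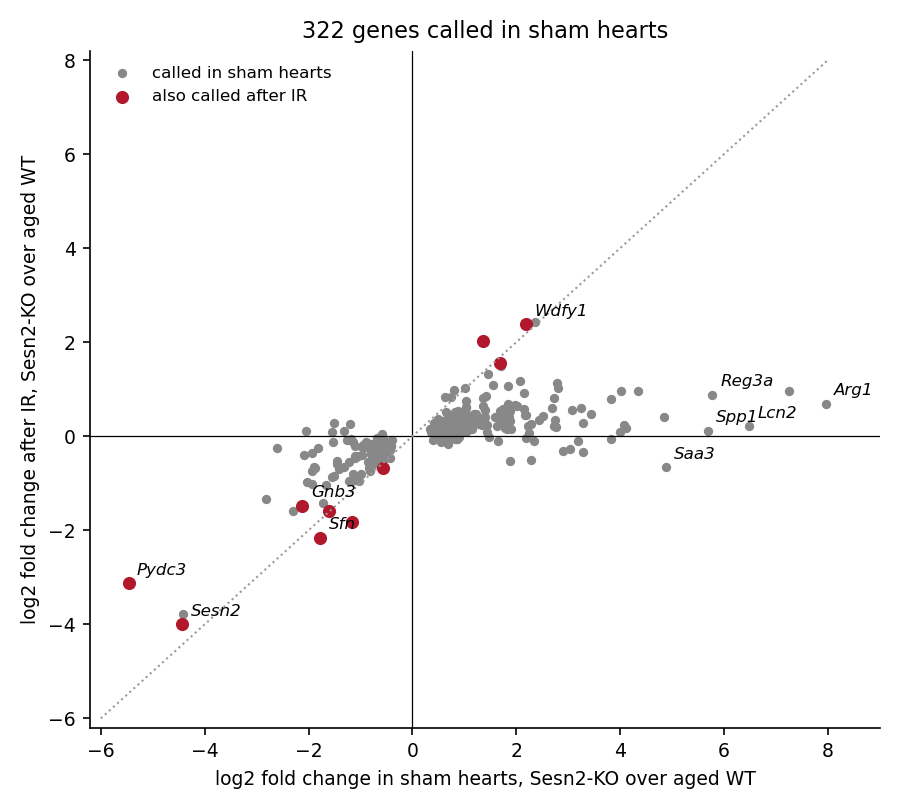
Each point is 1 of the 322 genes called between Sesn2-KO and aged WT sham hearts, with its log2 fold change (Sesn2-KO over aged WT) in sham hearts on the horizontal axis and after IR on the vertical axis; the dotted line marks equal values and red points are the 10 genes also called after IR. Lcn2 and Spp1 lie near 0 after IR (0.22 and 0.12), whereas Sesn2 and Wdfy1 lie near the line (-3.99 and 2.39).

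Genes near the mutated locus and genes known to vary among C57BL/6 colonies were examined because the mice came from different sources. Near the mutated locus, 6 of 258 genes tested within 10 Mb of Sesn2 on chromosome 4 were called (2.33%), against 2.35% of all 13345 tested genes with a position. The 6 were Sesn2 (-4.43), Sfn (-1.78), Hmgn2 (-1.60), Grrp1 (0.91), Extl1 (0.64) and Il22ra1 (-2.09), and Sesn2, Sfn and Hmgn2 were called again after IR. These were 3 of the 258 genes near the locus, against 9 called after IR among all 13345 with a position. The source of this difference in shares was not tested. Hmgn2 had 34.9, 34.6 and 28.2 CPM in Sesn2-KO, 88.3, 91.3 and 117 CPM in aged WT and 91.9, 103 and 116 CPM in young WT sham hearts, so both WT groups stood above the knockout. Grrp1, Extl1 and Il22ra1 lost the call without 2 to 5 of the 6 libraries, Grrp1 without aged WT 1 or Sesn2-KO 2 (0.103), Extl1 on leaving out any but aged WT 1 (0.165) and Il22ra1 on leaving out any but Sesn2-KO 1 (0.106). Of 7 tested genes known to vary between C57BL/6 substrains, 1 rose (Wdfy1) and 1 fell (median -0.40). The one that fell was Ide, the insulin-degrading enzyme, with 105, 110 and 108 CPM in Sesn2-KO, 146, 237 and 186 CPM in aged WT and 258, 233 and 253 CPM in young WT hearts (-0.82 ± 0.178, adjusted p = 0.0265, lost on leaving out any library other than aged WT 1, up to 0.0915). Nnt, a mitochondrial transhydrogenase disrupted in C57BL/6J, had 1074, 1121 and 1122 CPM in Sesn2-KO, 791, 737 and 791 CPM in aged WT and 768, 551 and 690 CPM in young WT hearts (Sesn2-KO over aged WT 0.52 ± 0.145, adjusted p = 0.0762); a count over the whole gene does not show whether its deleted exons are present. Cyfip2, Fgfbp3, Crb1 and Entpd4 were not called, and Nlrp12 had too few counts to test.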

How the data were processed

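Messenger RNA of 18 left ventricles, freeze-clamped after surgery, was prepared with a stranded poly(A) kit and sequenced as paired reads, per the labels' protocols. The values deposited by the authors are raw counts per gene, made with FastQC, Bowtie2, TopHat2, HTSeq and SAMtools on mm10, per the submitters' processing notes; for versions, annotation and strand setting the sources used here give nothing. The 2 summary lines of each table (no feature 6.12% to 9.06%, ambiguous 0.631% to 0.759%) were left out. Library totals were 9404531 to 14458047 counts.

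Counts were scaled by TMM and tested with edgeR 4.0.16 (R 4.3.3, robust quasi-likelihood fit) in 1 model of all 18 libraries, fitted with 6 group means and a shared estimate of spread. Fold changes kept edgeR's default prior count. Standard errors were back-calculated as the absolute log2 fold change over the square root of the test's F statistic. The 95% intervals of fold changes were built from them. A prior count of 2 was used only for the log2 CPM values behind distances, principal components and length trends. After edgeR's own filter on low counts 13859 of 24421 symbols were tested, with Benjamini-Hochberg adjustment over all of them. A gene is called where the adjusted p is below 0.05. DESeq2 1.42.0 and limma 3.58.1 served as alternatives, beside other scalings, sample sets, a replicate block, a length covariate and the leaving out of each library. Wherever limma voom is named, it was run with a quality weight for each library. The scripts were tested on simulated data. Gene positions came from GENCODE M21 (GRCm38) by symbol, for 23334 symbols (95.5%). Counting intervals (95%) cover counting error only.

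The members and all 45 gene lists were chosen with earlier results of these data known. Named genes were up to 12 called genes of highest and 12 of lowest fold change (mean at least 1 CPM, groups not overlapping, no clone names), up to 4 members of each list by smallest p, the sestrins, sex-linked and substrain genes, and up to 8 genes called in the same direction in both Sesn2-KO and aged WT against young WT. Genes called between Sesn2-KO and aged WT sham hearts were left out of these 8. Promoter motifs, the young WT comparisons after IR and the genes so marked in the text were chosen after the values were seen. The labels do not tie samples to litters or days, and same-numbered libraries of the 2 groups did not deviate together, so the p-values reflect only how far these hearts vary, which may be partly technical. Mitochondrially encoded messages matched no symbol and were not analysed here. The result of 1 gene is not reported here.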

Additional observations from a re-analysis of the deposited data

Results flagged for a closer look

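In 7 genes the gap between Sesn2-KO and aged WT hearts differed between sham and IR hearts by edgeR's quasi-likelihood test of the difference itself, computed as the log2 gap in sham minus that in IR hearts, with 3 hearts in each of the 4 groups. The difference was 6.26 ± 0.893 for Lcn2, 5.57 ± 0.776 for Spp1, 5.54 ± 0.757 for Saa3, 3.90 ± 0.547 for Ptx3 and 2.65 ± 0.355 for Mmp3, each with an adjusted p of 0.00651. It was 3.84 ± 0.456 for Serpina3n (adjusted p = 0.00374) and 3.29 ± 0.538 for Serpina3i (adjusted p = 0.0291).

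After IR, Saa3 had 8.21, 9.41 and 6.3 CPM in Sesn2-KO and 14.4, 16.6 and 6.89 CPM in aged WT hearts, and Ptx3 had 18, 11.9 and 19.2 CPM in Sesn2-KO and 22, 16.7 and 12.5 CPM in aged WT hearts. Serpina3i had 7.01, 5.95 and 8.85 CPM in Sesn2-KO and 8.48, 8.61 and 6.18 CPM in aged WT hearts, and Mmp3 had 144, 145 and 109 CPM in Sesn2-KO and 118, 78.5 and 65 CPM in aged WT hearts. The groups overlapped in each of these 4 genes after IR and were apart in sham hearts.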

How the results depend on the processing

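The number of genes called between Sesn2-KO and aged WT sham hearts was 322. It was 679 with the DESeq2 Wald test, 1690 with limma voom with quality weights, 520 with the 9 sham libraries alone and 860 with the length covariate. It was 22 without the 2 length-tilted libraries and 70 to 202 without each library in turn. After IR the count was 10, against 66 (Wald), 45 (voom), 38 (length covariate), 0 (compared groups alone, with 1068 genes at an unadjusted p below 0.05 in the model of all groups) and 5 to 8 without each library. For the difference of gaps it was 7, against 30 (Wald), 24 (voom), 0 without the tilted libraries and 2 to 13 without each library. For Sesn2-KO against young WT it was 708, against 1112 (Wald), 2179 (voom), 1679 (length covariate), 430 without the tilted libraries and 296 to 462 without each library. For aged against young WT it was 21, against 44 (Wald), 184 (voom), 40 (length covariate), 9 without the tilted libraries and 4 to 14 without each library. Young WT sham 1, with the most positive length correlation in its group (rho = 0.48), stayed in the fits without the tilted libraries. The other causes of these shifts were not tested; fits without a library have fewer samples.

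The 2 other scalings (297 and 279), no filter (236) and the compared groups alone (358) stayed within 1.5 times of 322. The replicate numbers do not pair the samples (same-number correlations of -0.389, 0.058 and -0.137), and with the replicate block the counts were 349, 10, 8, 755 and 20 in the order above.

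Of 111 named genes 75 were called, 35 of them without each library in turn and 19 without both tilted libraries. Estimates that changed sign were those of uncalled genes. Cyp2b10 had a log2 fold change of 0.17 without the tilted libraries and -0.53 to 0.22 without each library in turn. Ryr1 had -0.0023 with no filter, -0.0015 with Wald, -0.078 with the length covariate and -0.13 to 0.14 without each library. Sesn3 had 0.084 with the length covariate, 0.086 without the tilted libraries and -0.42 to 0.20 without each library. Uty had 0.12 with the length covariate and -0.32 to 0.039 without each library, while Entpd4 had -0.49 to 0.18 and Crb1 -1.36 to 0.19 without each library.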
